A study of Mus musculus with 4 samples.

Results

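Cell cycle genes were followed across the cell classes of mouse skin tumours. The set held 51 genes, matched by symbol among the 31054 rows of each count matrix (Ensembl genes and a YFP reporter), and each had at least 1 UMI (unique molecular identifier, a counted RNA molecule) in each of the 4 libraries. Of these, 21 act mainly in S phase and 30 in G2 and M phase. The mice are named LKPR and carried Lgr5CreER, p53fl/fl and Rosa26-YFP+/+ alleles in both groups. Cre thus acts in Lgr5-expressing cells, in skin the stem cells of the hair follicle, and marks their progeny with YFP. Tamoxifen was given in 4 injections of 2.5 mg from postnatal day 28, and tumours arose at 7 to 9 weeks. The control group had 2 libraries from untreated tumours. The NP137 group had 2 libraries from mice given NP137, an antibody against netrin-1, at 10 mg/kg every 2 days, starting 4 weeks after tamoxifen and ending at death. The comparison asked what the antibody changed in the primary tumour. All live sorted cells were loaded, so tumour cells, stroma and immune cells share each library.

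A dividing cell copies its DNA in S phase, prepares for division in G2 and separates its chromosomes in M phase. The S genes load and run the replicative helicase, supply nucleotides and process the copied strands, while the G2 and M genes encode the kinases and cyclins that start mitosis, the spindle and its checkpoint, and the proteins that end mitosis and divide the cell. Most of these RNAs are low in resting cells, and the Ki-67 protein, the product of Mki67, is a standard mark of proliferation in tumour pathology. In adult skin the follicle and the epidermis renew by division, and neutrophils are end cells that no longer divide.

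The promoters are shown because the S genes and the G2 and M genes carry different letters before their starts. RefSeq gave promoter windows (250 bases before to 50 after the start, GRCm38.p6) for 46 of the 51 genes, and none for Kif20a, Aurkb, Tpx2, Mcm4 and Gins2. Both strands were searched for TTTGAA (the core of the CHR, the cell cycle genes homology region), CCAAT (the CCAAT box) and the E2F forms TTTCGCGC, TTTCCCGC, TTTGGCGC and TTTGCCGC, which can overlap each other. TTTGAA stood in 20 of 27 G2 and M genes (74.1%) and in 3 of 19 S genes (15.8%), against 17.9% of all 32851 windows of that length. CCAAT stood in 85.2% of the G2 and M genes, 73.7% of the S genes and 37.4% of all windows. An E2F form stood in 10 of 19 S genes (52.6%), in 1 of 27 G2 and M genes (3.7%), which was Cdk1, and in 2.26% of all windows. TTTGAA and CCAAT stood together in 70.4% of the G2 and M genes, 10.5% of the S genes and 6.95% of all windows. The 250 bases before the start, free of annotated exons, are printed for 4 genes, with every match in capitals. Mki67 (chr7:135716380-135716629, minus strand) and Top2a (chr11:99024190-99024439, minus strand) define a cycling cell below, Cks2 (chr13:51644982-51645231, plus strand) is a G2 and M gene without TTTGAA, and Mcm6 (chr1:128359706-128359955, minus strand) is a helicase gene with E2F forms.
Mki67: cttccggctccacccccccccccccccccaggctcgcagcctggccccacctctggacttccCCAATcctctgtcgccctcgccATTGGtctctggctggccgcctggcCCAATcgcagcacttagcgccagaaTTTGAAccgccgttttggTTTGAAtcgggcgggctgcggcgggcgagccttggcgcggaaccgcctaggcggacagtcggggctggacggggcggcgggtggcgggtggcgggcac
Top2a: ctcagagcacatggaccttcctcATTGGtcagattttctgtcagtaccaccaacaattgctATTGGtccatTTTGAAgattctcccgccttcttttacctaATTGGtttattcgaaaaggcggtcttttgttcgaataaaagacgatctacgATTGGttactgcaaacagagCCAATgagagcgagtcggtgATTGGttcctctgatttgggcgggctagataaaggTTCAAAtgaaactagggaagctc
Cks2: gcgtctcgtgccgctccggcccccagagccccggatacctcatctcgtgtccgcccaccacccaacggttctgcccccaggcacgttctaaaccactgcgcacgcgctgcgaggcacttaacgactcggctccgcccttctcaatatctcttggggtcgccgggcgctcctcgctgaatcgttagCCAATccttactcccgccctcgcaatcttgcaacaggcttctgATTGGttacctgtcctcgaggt
Mcm6: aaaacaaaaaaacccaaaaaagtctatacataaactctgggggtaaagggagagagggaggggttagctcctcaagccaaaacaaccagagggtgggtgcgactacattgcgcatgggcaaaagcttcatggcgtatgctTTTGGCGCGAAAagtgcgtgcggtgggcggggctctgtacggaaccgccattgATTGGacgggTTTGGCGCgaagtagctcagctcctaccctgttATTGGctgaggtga
Mki67 and Top2a each held 2 matches to TTTGAA, with 3 and 6 to CCAAT. Mcm6 held 3 E2F matches, of which 2 overlap. A match describes letters and no binding was measured.

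The libraries held 44501 cells after filtering, 10482 and 5301 in control and 14205 and 14513 in NP137, with 69517664 to 149021188 UMIs each. The median depth was 2352 UMIs per cell in NP137 1 and 4566.5 to 6044 in the others. The 51 genes took 0.184% and 0.233% of UMIs in control and 0.245% and 0.209% in NP137. Cells were clustered without these genes and the other listed cell cycle genes, so that the classes were not made with them. YFP-positive clusters (those where at least 50% of cells held YFP) held 4778 and 1280 cells in control and 3203 and 957 in NP137. A YFP UMI was found in 74.9% to 93.3% of YFP-positive cells and in 3.13% to 17.5% of macrophage or monocyte-like cells. Other clusters were named after a cell type (with -like) from lists of its markers, and 514, 1759, 2621 and 933 cells stayed unnamed. The makeup was unequal: B-like cells numbered 1109 in NP137 2 and at most 2 elsewhere, fibroblast-like cells 60 in control 2 and 2943 in NP137 2, and keratinocyte-like cells 2699 in NP137 1 and 55 in NP137 2. Control 1 and NP137 2 held cells with Xist UMIs, control 2 cells with Y-linked UMIs, and NP137 1 cells of both kinds, and whether it pools animals is not stated in the labels. Among its YFP-positive cells the cycling share defined below was 24.0% of 479 cells with Xist alone and 24.9% of 1137 cells with Y-linked genes alone. Library pairs shared 14 to 52 barcodes among the cells used. One date stands in the names of the matrices deposited for NP137 1 and control 1, the other matrices have dates of their own, and what a date marks is not stated. Separate animals are not stated in the labels, so the p-values measure only the spread between libraries, which may be technical.

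The share of cycling cells was higher in YFP-positive tumour cells than in fibroblast-like, endothelial-like, macrophage or monocyte-like and neutrophil-like cells of the same library in 4 of 4 libraries, by a test that could not reach 0.05. A cell was called cycling when it held a Mki67 or Top2a UMI after thinning to 2000 UMIs, and shallower cells were left out, 2217 and 1795 in control and 6259 and 4538 in NP137. YFP-positive cells cycled at 15.8% (exact binomial 95% interval 14.7 to 16.9) and 26.1% (23.7 to 28.6) in control and at 23.8% (22.3 to 25.4) and 18.3% (15.8 to 20.95) in NP137. These intervals and those that follow cover counting error only. Both extremes were control libraries, and the NP137 libraries lay between them. Without thinning the shares were 32.04% and 58.0% in control and 44.9% and 46.3% in NP137, at median depths of 8190.5, 25508, 8636 and 18328 UMIs. Neutrophil-like cells gave 4.69% and 9.38% in control and 7.34% and 4.601% in NP137, which was read as background. Their median depths were 1495, 3494, 744 and 1289 UMIs, and 808, 28, 2295 and 3436 of their cells were too shallow to count.

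YFP-positive cells stood above the neutrophil-like background by a mean of 14.5 points (11.1 to 16.7). They stood above fibroblast-like cells by 14.3 points (8.48 to 22.7), above endothelial-like cells by 8.27 points (0.0506 to 13.6) and above macrophage or monocyte-like cells by 7.03 points (3.61 to 16.4). Each of these comparisons had an exact 2-sided sign-flip permutation p of 0.125, the smallest that 4 libraries allow. Over pericyte-like cells, the mural cells of small vessels, the difference was 6.29 points (-2.15 to 19.8), with 3 of 4 libraries above 0 and an exact permutation p of 0.375. None of these 5 comparisons could reach 0.05 in this design.

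Among the fibroblast-like, pericyte-like and endothelial-like classes, fibroblast-like cells had the lowest shares in every library. These were 7.28% and 3.39% in control and 6.604% and 9.55% in NP137. In control 2 and NP137 1 these were below the neutrophil-like share of the same library, and that of control 2 was read as background. For NP137 1 the reading depended on the measure. At least 3 of the 51 genes were found in 21.1% of 185 cells of its main fibroblast-like cluster. In its main neutrophil-like cluster they were found in 5.71% of 70 cells. Only in NP137 2 did the interval of the fibroblast-like share (8.503 to 10.7) lie clear of the neutrophil-like one (3.38 to 6.11). Pericyte-like shares were 17.9% and 6.31% in control and 16.3% and 18.2% in NP137, with control 2 at background. Endothelial-like cells gave 15.7% and 12.7% in control and 10.2% and 12.2% in NP137. Keratinocyte-like cells without YFP gave 13.7% and 11.2% in control and 16.1% and 12.2% in NP137, the last from 6 of 49 cells. Macrophage or monocyte-like cells gave 11.96% and 9.70% in control and 19.5% and 14.7% in NP137. T or NK-like cells had the widest spread between libraries of the classes described here. They cycled at 15.1% of 73 and 12.5% of 88 cells in control and at 43.2% of 37 and 34.8% of 345 cells in NP137. Their NP137 intervals of 27.1 to 60.5 and 29.8 to 40.1 lay above the control intervals of 7.77 to 25.4 and 6.41 to 21.3. This difference was not tested, since 388 of the 425 cells of NP137 1 were too shallow and 37 remained.

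**Figure D1:**
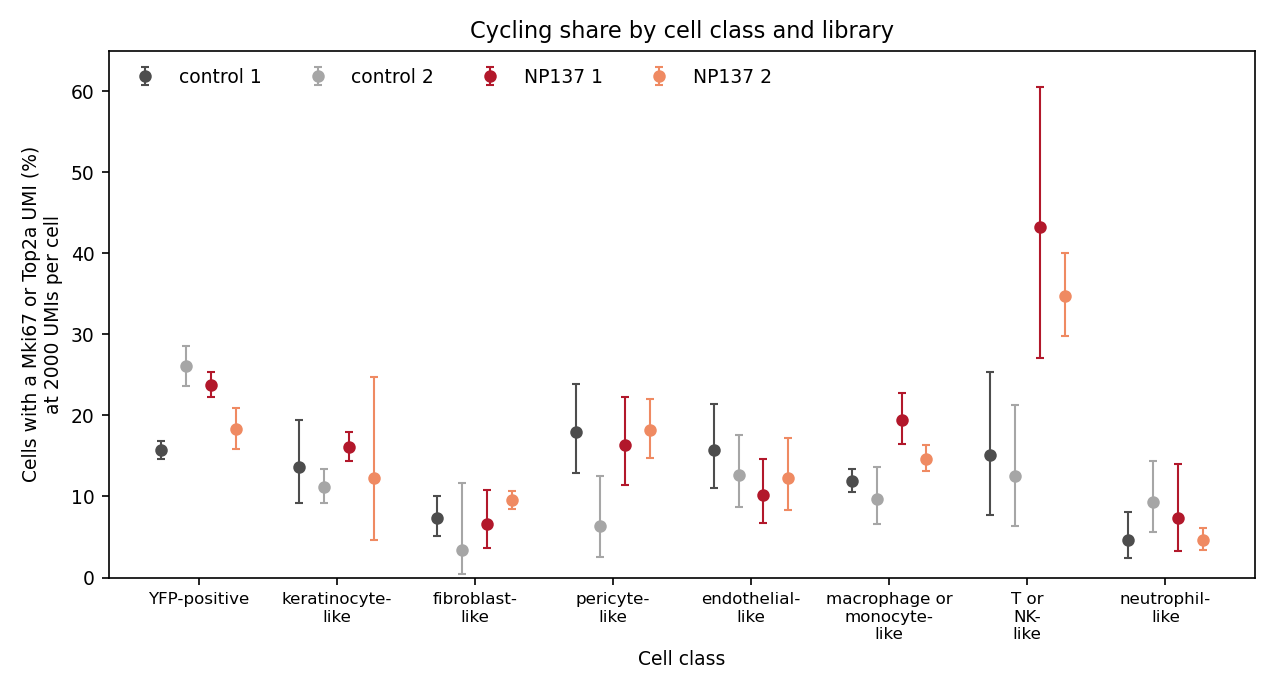
Share of cells with a Mki67 or Top2a UMI after thinning to 2000 UMIs (percent, vertical axis) by cell class and library, with exact binomial 95% intervals. YFP-positive cells lie between 15.8% and 26.1%, and fibroblast-like and neutrophil-like cells between 3.39% and 9.55%.

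Levels are given as CPM, the UMIs of a gene scaled so that all UMIs of a class in a library add up to 1000000. Summed over the 51 genes, YFP-positive cells held 2142 and 3493 CPM in control and 3485 and 2625 in NP137. Neutrophil-like cells held 852 and 937 CPM in control and 831 and 615 in NP137. Fibroblast-like cells held 870.3 and 438 CPM in control and 1429 and 1641 in NP137, so that control 1 lay near the neutrophil-like level of its library, control 2 below it and both NP137 libraries above it. Pericyte-like cells ranged from 735 CPM in control 2 to 3208 CPM in NP137 2. T or NK-like cells held 1479.5 and 2052 CPM in control and 2193 and 4727 in NP137. The class with the most genes at their highest level changed with the library: pericyte-like cells for 18 and YFP-positive cells for 14 genes in control 1, YFP-positive cells for 40 in control 2 and 37 in NP137 1, and T or NK-like cells for 34 in NP137 2. In NP137 2 the YFP-positive cells were highest for 5 genes, all of them S genes.

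**Figure D2:**
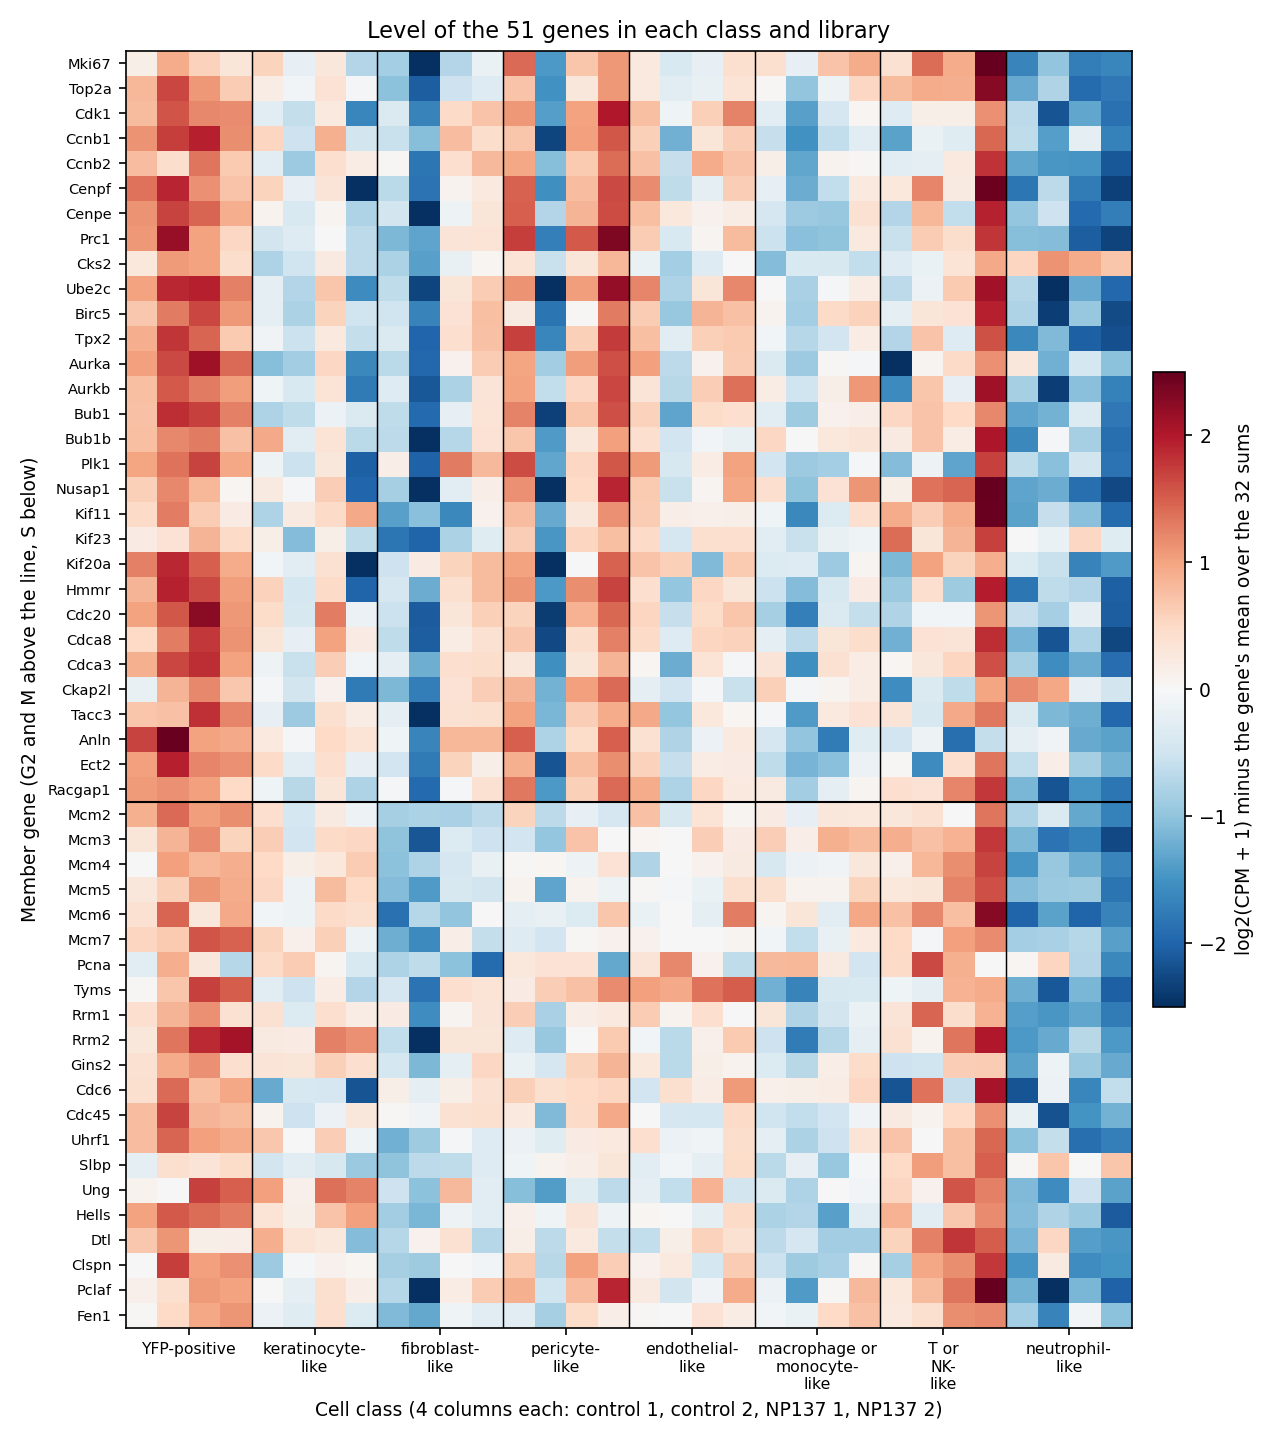
Level of each of the 51 genes as log2(CPM + 1) minus that gene's mean over the 32 sums of 8 classes by 4 libraries (colour), genes in rows and class by library in columns. Neutrophil-like columns and the fibroblast-like columns of control are mostly below the mean, and YFP-positive columns and the T or NK-like column of NP137 2 mostly above it.

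Mki67, whose protein coats mitotic chromosomes, stood in YFP-positive cells at 67.8 and 118 CPM in control and 92.1 and 76.0 in NP137. In neutrophil-like cells it stood at 18.8 and 30.4 CPM in control and 17.9 and 19.2 in NP137. Its level in T or NK-like cells was 80.3 and 163 CPM in control and 118 and 369 in NP137, the latter being the highest of any tested class in any library. Top2a, the topoisomerase that untangles sister chromatids, stood in YFP-positive cells at 121 and 217 CPM in control and 143 and 105 in NP137. Fibroblast-like cells held 32.6 and 15.3 CPM of Top2a in control and 46.7 and 53.6 in NP137, below the YFP-positive level of every library.

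In the fit over all genes with library as a block (edgeR quasi-likelihood test with Benjamini-Hochberg adjustment at 0.05), the genes that passed were higher in YFP-positive cells in every comparison with another class. Against neutrophil-like cells 46 of the 51 passed, while 23.6% of all genes tested passed as higher. Against macrophage or monocyte-like cells 29 passed (20.5% of all genes), against keratinocyte-like cells 27 (10.6%), against fibroblast-like cells 25 (12.5%) and against endothelial-like cells 21 (15.5%). Against pericyte-like cells 10 passed (11.2% of all genes), and against T or NK-like cells 4 of 51 (13.8%). None of the 51 passed as lower in any of these 7 comparisons, where 9.08% to 21.1% of all genes did. DESeq2 called 2 as lower against neutrophil-like and 2 against T or NK-like cells, and at an unadjusted edgeR p of 0.05 these comparisons had 1 and 2 lower. The share of all genes is not given beside these counts, so they are not read against it. The median log2 difference over the 51 ran from 0.56 against T or NK-like cells to 2.04 against neutrophil-like cells. Cdc20, an activator of the anaphase ligase, Mcm2, a helicase subunit, and Hells, a chromatin remodeller, passed in 6 of the 7 comparisons. Tyms, Mcm7, Ccnb1, Uhrf1 and Cdca8 passed in 5, and Mki67 passed in 1.

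Genes that start mitosis separated YFP-positive cells from keratinocyte-like and macrophage or monocyte-like cells, where all 7 of them passed. Aurka, a centrosome kinase, was 2.25 ± 0.32 (log2 difference ± SE) above keratinocyte-like cells (edgeR adjusted p = 0.00715) and 1.73 above macrophage or monocyte-like cells. Ccnb1, the mitotic cyclin B1, was 2.02 above macrophage or monocyte-like cells. Cks2, a subunit of the cyclin-dependent kinase, was 1.06 ± 0.14 above them (edgeR adjusted p = 0.00287). Against neutrophil-like cells 6 of the 7 passed and Cks2 did not. Cks2 in neutrophil-like cells was 178 and 264 CPM in control and 233 and 198 in NP137, beside 147 and 254 CPM in control and 246 and 166 in NP137 in YFP-positive cells. Cks2 alone made up 20.9% to 32.2% of the neutrophil-like UMIs of the 51 genes. Against pericyte-like cells none of the 7 passed.

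Of the 9 genes of chromosomes, centromeres and the checkpoint, all passed against neutrophil-like cells. Cenpf, a kinetochore protein, had the smallest p there, at 2.60 ± 0.25 (edgeR adjusted p = 0.000154), and Top2a was 2.08 ± 0.27 higher. Against keratinocyte-like cells Bub1, a checkpoint kinase, was 2.03 ± 0.25 higher (edgeR adjusted p = 0.00523) and Cenpe, a kinetochore motor, 1.49 ± 0.20. Mki67 passed against neutrophil-like cells alone, at 1.58 ± 0.25 (edgeR adjusted p = 0.00181). Against endothelial-like cells Mki67 stood at 0.60 ± 0.26 (edgeR adjusted p = 0.13) and Top2a at 1.16 ± 0.27 (0.025), and against keratinocyte-like cells at 0.41 ± 0.26 (0.304) and 0.89 ± 0.19 (0.0244), so that Top2a passed in both. Against fibroblast-like cells Top2a passed at 2.00 ± 0.44 and Mki67 did not at 1.54 ± 0.56 (edgeR adjusted p of 0.0263 and 0.101). Against macrophage or monocyte-like cells Mki67 stood at -0.25 ± 0.29 and Top2a at 0.91 ± 0.41, and neither passed. Against T or NK-like cells Mki67 stood at -0.77 ± 0.36 and Top2a at -0.10 ± 0.38, and neither passed. Against pericyte-like cells the values were 0.01 ± 0.60 and 0.89 ± 0.58.

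Tpx2, which activates the kinase of Aurka on the spindle, was 2.66 ± 0.29 above neutrophil-like cells. Of the spindle genes, Hmmr, a spindle-associated protein, was 2.39 ± 0.27 and Prc1, a crosslinker of midzone microtubules, 2.50 above them. Prc1 was also 1.53 above keratinocyte-like cells. In the exit group Cdc20 was 2.13 ± 0.30 above macrophage or monocyte-like cells (edgeR adjusted p = 0.00354) and 1.45 ± 0.41 above T or NK-like cells (0.035). Ube2c, the ubiquitin-conjugating enzyme that works with the anaphase ligase, was 1.86 above keratinocyte-like cells. Anln, which builds the contractile ring, was the clearest gene against T or NK-like cells, 2.37 ± 0.33 higher (edgeR adjusted p = 0.00155), and 2.20 above macrophage or monocyte-like cells. The others that passed against T or NK-like cells were Cdc20, Cdk1, the mitotic kinase, at 0.97 ± 0.28, and Tyms, thymidylate synthase, at 0.72 ± 0.23.

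All 10 genes that passed against pericyte-like cells were S genes. Hells was 1.36 ± 0.21 higher than in pericyte-like cells (edgeR adjusted p = 0.00815), Ung, the uracil glycosylase, 2.08 ± 0.34, Mcm7 1.33 ± 0.22 and Rrm2, the small subunit of ribonucleotide reductase, 1.65 ± 0.31. Mcm2, Mcm3, Mcm5, Mcm6, Fen1 and Uhrf1 made up the rest, at 0.86 to 1.42. Against fibroblast-like cells 6 of 6 Mcm genes passed, with Mcm2 at 1.97 ± 0.21 (edgeR adjusted p = 0.00312) and Mcm7 at 1.93 ± 0.21. Against endothelial-like cells Hells was 1.40 ± 0.20 (edgeR adjusted p = 0.00577) and Mcm4 0.96 ± 0.16 higher, followed by Rrm2 at 1.57 ± 0.31, Cenpe at 1.12 ± 0.23 and Cdca3 at 1.72 ± 0.36. Slbp, which binds histone mRNA, did not pass against neutrophil-like cells, where it stood at 56.0 and 89.1 CPM in control and 54.9 and 88.9 in NP137, beside 47.0 and 73.0 CPM in control and 68.6 and 76.0 in NP137 in YFP-positive cells. Without NP137 1 the counts that passed fell to 1 against endothelial-like cells (Hells), 5 against fibroblast-like cells (Hells, Mcm2, Mcm5, Mcm7 and Uhrf1), 12 against keratinocyte-like, 11 against macrophage or monocyte-like, 0 against pericyte-like and 1 against T or NK-like cells (Anln). Against neutrophil-like cells 40 still passed without it. Of all genes, 1.76% (against fibroblast-like) to 12.4% (against neutrophil-like) passed as higher without NP137 1. Without control 1 they were 14 against fibroblast-like, 6 against keratinocyte-like, 6 against pericyte-like and 1 against T or NK-like cells. Without control 2 they were 8 against endothelial-like, 13 against keratinocyte-like, 18 against macrophage or monocyte-like, 4 against pericyte-like and 1 against T or NK-like cells, and without NP137 2 they were 13 against endothelial-like and 22 against T or NK-like cells. The share of all genes is given only for the fits without NP137 1. The other counts thus show how the calls move, and not whether they exceed that share.

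Other genes of the cycle, from lists set apart from the 51, differed between classes as well. Against fibroblast-like cells 32 of the 81 other mitotic genes passed as higher in YFP-positive cells and 0 as lower (12.5% and 10.4% of all genes), and 13 of the 18 listed licensing and checkpoint genes passed as higher. Against pericyte-like cells 3 mitotic genes passed as higher and 1 as lower (11.2% and 10.7% of all genes). Ccnd1, the G1 cyclin D1, passed as higher in YFP-positive cells in all 7 comparisons, from 1.39 against endothelial-like cells to 4.84 against fibroblast-like cells. Cdkn2a, which encodes the inhibitors p16 and Arf, also passed as higher in all 7, by 2.99 to 4.70. Cdkn1a, which encodes the inhibitor p21, passed as lower against neutrophil-like cells at -4.44 and against macrophage or monocyte-like cells at -3.17.

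YFP-positive clusters were placed on an epithelial or a mesenchymal side by lists of epithelial and mesenchymal genes. The summed keratinocyte markers of YFP-positive cells ran from 822 to 21194 CPM over the libraries and the summed fibroblast markers from 252 to 7769 CPM. The mesenchymal side held 91.7% and 98.2% of YFP-positive cells in control, and the epithelial side 96.9% and 98.3% in NP137, so state and treatment cannot be told apart between libraries. Within control 1 the epithelial side cycled at 26.5% (98 of 370 cells, 22.1 to 31.3) and the mesenchymal side at 14.8% (578 of 3918, 13.7 to 15.9). Within NP137 1 the epithelial side cycled at 24.2% (702 of 2906, 22.6 to 25.8) and the mesenchymal side at 7.69% (5 of 65, 2.54 to 17.0). The mesenchymal cells of control 2 cycled at 26.1%, beside 26.5% on the epithelial side of control 1. With 1 library for each of these contrasts within a library no test was made.

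The mesenchymal side of control 1 was not uniform. Its largest cluster, led by Mme and H19, held 3104 cells and cycled at 9.32% (271 of the 2909 deep enough to count, 8.28 to 10.4). The cluster led by Acan and Krt8 held 1251 cells and cycled at 30.9% (305 of the 986 deep enough, 28.1 to 33.9). All 30 G2 and M genes were higher in the Acan and Krt8 cluster (49.4% of all genes with a mean of at least 1 CPM), by a median of 2.06 on the log2 scale (1.49 to 2.50), and all 21 S genes, by a median of 1.73 (0.92 to 2.42). Mki67 stood there at 111 CPM against 33.2 CPM, Top2a at 229 CPM against 54.2 CPM, and Rrm2 at 56.8 CPM against 9.8 CPM. The epithelial side was not uniform either. Its cluster led by Wfdc2 and Krt90 cycled at 28.6% in control 1, 26.6% in NP137 1 and 21.5% in NP137 2. Its cluster led by Fxyd2 and Aldh3a1 cycled at 16.9% in control 1 (13 of 77 cells, 9.31 to 27.1) and 17.5% in NP137 1. The cluster led by Tchh and Il24 cycled at 20.2% in NP137 1 and 17.9% in NP137 2, and the cluster led by Mgp and Crisp1 held 26.3% cycling cells in control 2. In control 1, 17 of 21 S genes were higher on the epithelial than on the mesenchymal side (median 0.58), and 19 of 30 G2 and M genes (median 0.09), beside 53% of all genes (median 0.046). Rrm2 stood at 84.8 CPM on the epithelial and 27.4 CPM on the mesenchymal side of control 1, while Prc1 stood at 41.4 CPM and 65.6 CPM. In NP137 1, 29 of 30 G2 and M genes (median 1.61) and 18 of 21 S genes (median 1.10) were higher on the epithelial side, beside 46.9% of all genes, with 99 cells on the mesenchymal side.

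**Figure D3:**
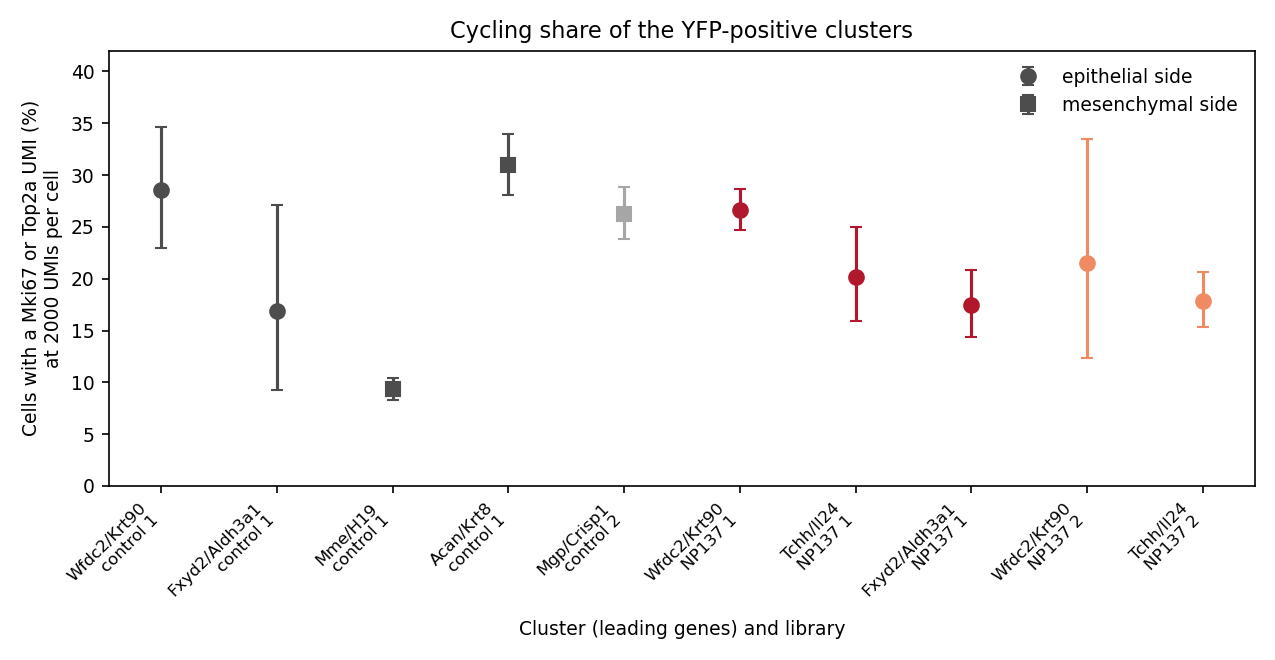
Share of cycling cells (percent, vertical axis) in each YFP-positive cluster of each library, with exact binomial 95% intervals, circles for the epithelial and squares for the mesenchymal side. In control 1 the mesenchymal clusters lie at 9.32% and 30.9%.

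Between NP137 and control the YFP-positive cycling share did not differ beyond the spread between libraries, with means of 20.92% in control and 21.04% in NP137. The difference was 0.123 points (exact 2-sided permutation p = 1, where 2 against 2 libraries cannot go below 0.333), and it was -5.03 points without control 1, 5.28 without control 2, -2.63 without NP137 1 and 2.88 without NP137 2. The balance of S over G2 and M levels over all YFP-positive cells lay higher in both NP137 libraries. The log2 ratio of summed S over summed G2 and M CPM was -1.24 and -1.29 in control and -1.03 and -0.57 in NP137, without overlap, a difference of 0.46 (exact permutation p = 0.333; 0.23 without NP137 2 and 0.70 without NP137 1). Within the epithelial side it was -0.95 in control 1, -1.03 in NP137 1 and -0.56 in NP137 2, and in the cluster led by Wfdc2 and Krt90 -0.96, -0.96 and -0.34, so that within this state NP137 2 alone lay above control 1. On the mesenchymal side it was -1.29 in both controls and -0.77 in NP137 1, the latter from 99 cells. The control 1 clusters of that side stood at -1.08 (led by Mme and H19) and -1.38 (led by Acan and Krt8). Nucleotide supply genes summed to 137 and 225 CPM in control and 354 and 313 in NP137, without overlap. Cytokinesis genes (Anln, Ect2 and Racgap1) summed to 119.9 and 180.2 CPM in control and 98.7 and 82.0 in NP137, also without overlap. This rested on Anln, given below, and the groups overlapped in the sum of Ect2 and Racgap1. Licensing and helicase genes overlapped, at 244 and 383 CPM in control and 385 and 358 in NP137.

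In YFP-positive cells none of the 51 genes passed the edgeR quasi-likelihood test (adjusted p of 0.05), where 0% of all genes passed as higher and 0.00707% as lower. At an unadjusted p of 0.05, 8 were higher and 1 lower (10.7% and 12.6% of all genes). DESeq2 called 7 as higher and 0 as lower (7.05% and 8.82% of all genes). The 7 were Ung, Mcm7, Tyms, Pclaf, Tacc3, Fen1 and Rrm2, of which all but Tacc3 are S genes. The fold was above 0 for 37 of 51 genes, against 48.4% of all genes, with a median of 0.30. The groups did not overlap with NP137 higher for 9 genes and with NP137 lower for 5 (18.3% and 40% of all genes). Of the 9, 7 were S genes.

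Ung stood at 8.67 and 8.005 CPM in control and 28.6 and 24.5 in NP137, a log2 fold change of 1.92 ± 0.30 (edgeR adjusted p = 0.0713). Mcm7 stood at 42.8 and 46.5 CPM in control and 88.6 and 82.8 in NP137 (1.19 ± 0.23, edgeR adjusted p = 0.0868). Tyms stood at 48.4 and 77.6 CPM in control and 158 and 138 in NP137 (1.49 ± 0.30, edgeR adjusted p = 0.0895). For each of these 3 S genes both NP137 libraries lay above both control libraries. Among the G2 and M genes, Tacc3, a spindle protein, stood at 34.8 and 35.9 CPM in control and 77.5 and 50.5 in NP137 (1.09 ± 0.28, edgeR adjusted p = 0.117). Anln stood lower in NP137, at 58.0 and 102 CPM in control and 36.1 and 34.3 in NP137 (-0.92 ± 0.33, edgeR adjusted p = 0.187). Kif23, a motor of the midbody, stood at 22.6 and 25.3 CPM in control and 36.1 and 27.5 in NP137 (0.65 ± 0.27, edgeR adjusted p = 0.227). Mki67 at 0.11 ± 0.32 and Top2a at -0.20 ± 0.34 overlapped between the groups.

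**Figure D4:**
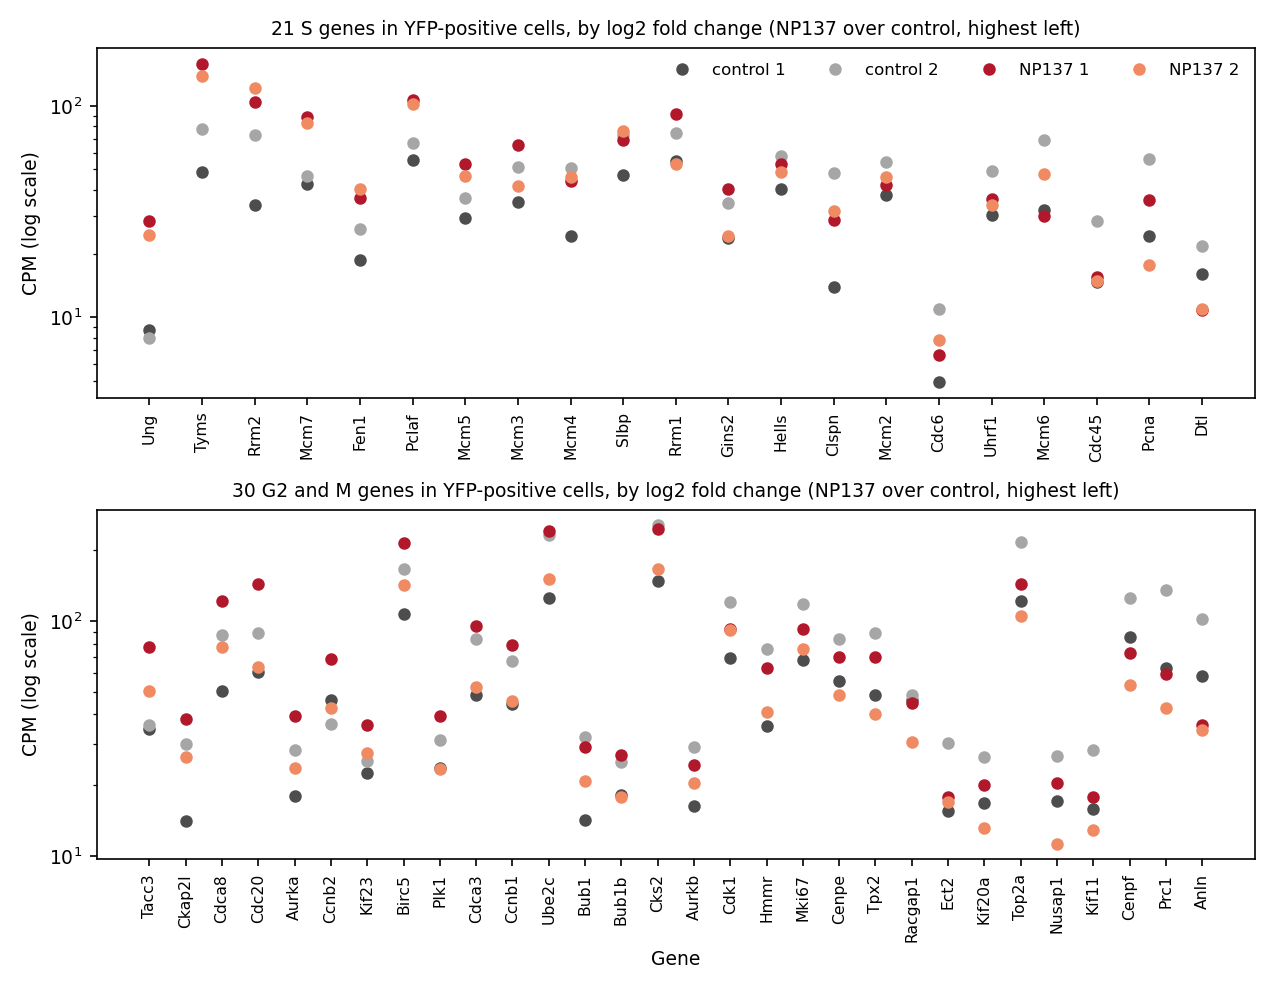
Level of each of the 51 genes in YFP-positive cells (CPM, log axis) in the 4 libraries, S genes and G2 and M genes in separate panels and ordered by log2 fold change. Ung, Tyms and Mcm7 have both NP137 points above both control points, and Anln both below.

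Levels were also read within the cycling YFP-positive cells alone, taken here without thinning. The libraries differ in depth, so the cells called cycling were a different fraction of each, as given above. This was not adjusted for. Among cells with a Mki67 or Top2a UMI, Tyms stood at 79.4 and 97.9 CPM in control and 227 and 226 in NP137. Rrm2 stood there at 63.6 and 98.4 CPM in control and 154 and 201 in NP137, and Pclaf, a PCNA-binding protein, at 106 and 91.0 CPM in control and 156 and 178 in NP137. Anln stood at 109 and 137 CPM in control and 56.4 and 58.7 in NP137, and Cenpf at 174 and 174 CPM in control and 121 and 98.1 in NP137. In these cells 8 of 21 S genes had NP137 higher without overlap and 1 lower, which was Dtl, an adaptor of a ubiquitin ligase. Of the 28 G2 and M genes other than Mki67 and Top2a, 6 were higher and 6 lower without overlap. Over all genes 19.1% were higher and 40% lower without overlap. In the cells without a Mki67 or Top2a UMI 11 of 21 S genes were higher and 1 lower, beside 19.3% and 39.5% of all genes.

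The members differed in how far they marked cycling cells. In YFP-positive cells the level in cycling over other cells had a median log2 ratio of 3.34 over 28 G2 and M genes (1.92 to 4.54) and of 1.87 over 21 S genes (0.73 to 3.12). The highest were Cenpf at 4.54, Nusap1, a spindle protein, at 4.08, Prc1 at 4.06, Plk1, the polo kinase, at 3.92 and Ube2c at 3.84. The lowest were Slbp at 0.73, Gins2, a helicase subunit, at 1.01, Pcna, the sliding clamp, at 1.07, Mcm4 at 1.34 and Ung at 1.40. Cycling cells were defined by Mki67 and Top2a, so these ratios describe how the other genes go with that pair.

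**Figure D5:**
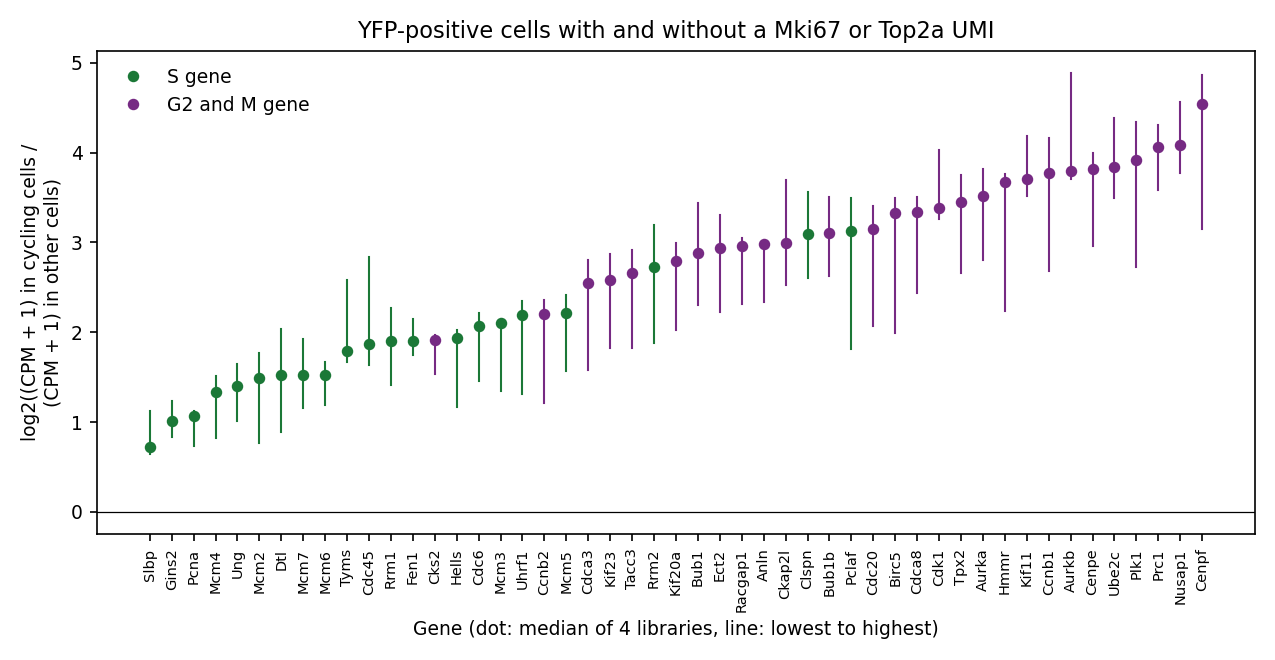
Log2 ratio of the level in cycling over other YFP-positive cells for each gene (horizontal axis), the dot being the median of 4 libraries and the line running from the lowest to the highest library. Cenpf lies at the top at 4.54 and Slbp at the bottom at 0.73.

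DESeq2 called none of the 51 between NP137 and control in any class other than YFP-positive cells. Of all genes it called 0.824% as higher and 0.933% as lower over all cells, 0.0286% and 0.0668% in fibroblast-like, 0.107% and 0.0179% in keratinocyte-like, 0.0352% and 0.0176% in macrophage or monocyte-like, 0.0221% and 0.0996% in neutrophil-like, 0.0342% and 0% in pericyte-like, 0.0474% and 0.111% in T or NK-like cells, and 0% in both directions in endothelial-like cells. In fibroblast-like cells nearly all of the 51 genes stood higher in NP137, and none passed the edgeR test. The fold was above 0 for 50 of 51, against 48% of all genes, with a median of 1.20, and 25 were higher and 0 lower at an unadjusted p of 0.05 (2.62% and 2.57% of all genes). The groups did not overlap for 43 genes with NP137 higher (18.4% of all genes) and for 1 with NP137 lower (19.3%). Prc1 stood at 12.8 and 11.1 CPM in control and 36.7 and 37.2 in NP137 (1.63 ± 0.28, edgeR adjusted p = 0.892, which all genes named in these cells share). Ckap2l, a spindle protein, stood at 6.84 and 4.16 CPM in control and 20.9 and 25.1 in NP137 (2.02 ± 0.37), with 6 UMIs behind the value of control 2. Tyms stood at 35.5 and 12.5 CPM in control and 63.6 and 60.4 in NP137 (1.30 ± 0.47). Ccnb1 was at 1.42 ± 0.33, Mcm7 at 1.20 ± 0.39, Fen1, the flap endonuclease, at 1.08 ± 0.33, Mki67 at 1.11 ± 0.69 and Top2a at 1.04 ± 0.38. The S over G2 and M log2 ratio went the other way from YFP-positive cells, as it did in macrophage or monocyte-like cells, given below. In fibroblast-like cells it was -0.87 and -0.14 in control and -0.97 and -1.19 in NP137, without overlap. The difference was -0.57 (exact permutation p = 0.333), and it was -0.21 without control 2 and -0.93 without control 1. Control 2 had 60 fibroblast-like cells, and without control 1 a single gene passed, Pclaf. The cluster led by Mfap5 and Mfap4 made up 416 of 460, 54 of 60, 198 of 231 and 1721 of 2943 fibroblast-like cells in control 1, control 2, NP137 1 and NP137 2, and cycled at 8.03%, 3.77%, 7.03% and 13.1%.

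In T or NK-like cells 39 of the 51 genes had enough UMIs to be tested, and none passed (edgeR adjusted p from 0.641). The 12 left out were Ccnb1, Aurka, Aurkb, Bub1, Bub1b, Plk1, Kif20a, Ckap2l, Anln, Ect2, Cdc6 and Cdc45. The fold was above 0 for 37 of 39 (51.4% of all genes), with a median of 1.16, and 16 were higher at an unadjusted p of 0.05 (2.76% of all genes). The groups did not overlap for 22, all with NP137 higher (14.4% of all genes). Ube2c stood at 38.9 and 56.0 CPM in control and 97.7 and 269 in NP137 (2.10 ± 0.55), and Rrm2 at 36.5 and 29.7 CPM in control and 71.8 and 115 in NP137 (1.64 ± 0.42). Top2a stood at 117 and 129 CPM in control and 128 and 328 in NP137 (1.04 ± 0.48), and Mki67 was at 1.16 ± 0.64. Mcm5 was at 1.32 ± 0.39, Tyms at 1.21 ± 0.34, Racgap1, a regulator of the contractile ring, at 1.31 ± 0.41 and Cks2 at 1.05 ± 0.34. NP137 2 was the highest library in most of these. Without NP137 1, 29 of 49 genes tested passed as higher (2.96% of all genes), with NP137 2 as the single treated library and assumed to vary like the controls. The summed macrophage markers in this class ranged from 494 to 4385 CPM over libraries beside 5454 to 10941 CPM of its own markers, and their part in the result was not tested.

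Macrophage or monocyte-like cells cycled at a mean of 10.8% in control and 17.1% in NP137 (difference 6.25 points, exact permutation p = 0.333, no overlap), and the difference was -2.81 points without thinning. Their S over G2 and M log2 ratio was -0.70 and -0.34 in control and -0.82 and -0.72 in NP137, without overlap. The difference in this ratio was -0.25 (exact permutation p = 0.333). Of 51 genes none passed the edgeR test (adjusted p of 0.995 for those named), 6 were higher and 1 lower at an unadjusted p of 0.05 (1.39% and 2.17% of all genes), and 46 had a fold above 0 (50.1% of all genes). Without overlap, NP137 was higher for 19 and lower for 2 (11.9% and 21% of all genes). Tyms stood at 20.2 and 14.2 CPM in control and 35.6 and 36.1 in NP137 (1.13 ± 0.29), and Mki67 at 82.0 and 53.3 CPM in control and 101 and 118 in NP137 (0.77 ± 0.27). Cdca8, a chromosomal passenger protein, was at 0.90 ± 0.26, Birc5, its partner survivin, at 0.91, Gins2 at 0.94, Fen1 at 0.86 and Top2a at 0.70 ± 0.40. The cluster led by Chil3 and Mmp12 cycled at 9.76% and 10.1% in control and 19.3% and 16.8% in NP137. In NP137 2 a cluster led by Ccl6 and Folr2, with 841 cells, cycled at 6.97% and a cluster led by Fcrls and Pf4 at 28.1%, while the latter cycled at 13.5% and 10.6% in control. In NP137 1 the share was 14.4% of 139 cells with Xist alone and 25.2% of 131 cells with Y-linked genes alone.

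Keratinocyte-like cells had 45 of 51 genes with a fold above 0 (47% of all genes). At an unadjusted p of 0.05, 8 were higher and 0 lower (2.92% and 3.11%), and none passed the edgeR test. Without overlap, NP137 was higher for 13 (13.5% of all genes) and lower for 2 (28.6%). Rrm2 stood at 32.9 and 32.4 CPM in control and 68.4 and 62.9 in NP137 (1.13 ± 0.28, edgeR adjusted p = 0.78). Ccnb2, cyclin B2, was at 1.13 ± 0.36, Tacc3 at 1.10, Ung at 0.99, Cdca3, a mitotic-entry regulator, at 0.92 and Hells at 0.73, with Top2a at 0.27 and Mki67 at -0.10. Of the pericyte-like genes tested, 47 of 49 had a fold above 0 (48.5% of all genes), 4 were higher at an unadjusted p of 0.05 (1.25%), none passed the edgeR test, and NP137 was higher without overlap for 15 (15.8%). Cdc6 and Ung were too low to test there. Gins2 was at 1.07 ± 0.32, Mcm3 at 1.11, Rrm2 at 1.05, Aurka at 1.15, Ckap2l at 1.16 and Cks2 at 0.66. Control 2 stood low in pericyte-like cells, with Mki67 at 165 and 22.1 CPM in control and 99.95 and 132 in NP137 (0.35 ± 0.96), and Top2a at 110 and 22.9 CPM in control and 81.9 and 143 in NP137 (0.80 ± 0.79).

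The endothelial-like share was lower in both NP137 libraries, at a difference of -3.00 points (exact permutation p = 0.333, no overlap), and was 1.19 points when cells were thinned to 1000 UMIs. Of the 50 genes tested there, 42 had a fold above 0 (48.6% of all genes). None passed the edgeR test, 3 were higher and 1 lower at an unadjusted p of 0.05 (3.6% and 4.62% of all genes), and NP137 was higher without overlap for 9 (18.1%) and lower for 3 (25.1%). Tyms stood at 98.1 and 92.0 CPM in control and 123 and 138 in NP137 (0.52 ± 0.20, edgeR adjusted p = 0.595), Rrm2 was at 0.86, Aurkb, a passenger kinase, at 1.37 ± 0.50, Ccnb2 at 0.72, Cdk1 at 0.67, Mki67 at 0.25 and Top2a at 0.16. Pcna stood lower, at 37.2 and 69.1 CPM in control and 32.02 and 18.5 in NP137 (-1.05 ± 0.42). In neutrophil-like cells 13 of 41 tested genes had a fold above 0 (51.4% of all genes), none passed the edgeR test, 0 were higher and 2 lower at an unadjusted p of 0.05 (3.23% of all genes lower), and NP137 was lower without overlap for 11 (24.5%). Pcna was again lower, at 30.7 and 43.6 CPM in control and 17.4 and 9.04 in NP137 (-1.32 ± 0.50, edgeR adjusted p = 1), as was Ckap2l at -1.26 ± 0.47. Different clusters held most of this class: the cluster led by Acod1 and Ccrl2 held 717 of 1064 cells in control 1 and 2219 of 2404 in NP137 1, but 71 of 220 in control 2 and 73 of 4414 in NP137 2, where the clusters led by Ccl3 and Gm5483 (2354 cells) and by G0s2 and Hdc (1738 cells) held most. Prc1 was at -1.03, Anln at -1.01, Mcm2 at -0.81, Fen1 at 0.90, Mki67 at -0.16 and Top2a at -0.66. Over all cells together none passed the edgeR test, 6 were higher and 1 lower at an unadjusted p of 0.05 (3.18% and 3.32% of all genes), 36 of 51 had a fold above 0 (51.4%), and Pclaf led at 51.5 and 53.005 CPM in control and 81.5 and 112 in NP137 (1.08 ± 0.27, edgeR adjusted p = 0.763). Rrm2 was at 0.99 ± 0.32 and Tyms at 0.96 ± 0.30, Anln at -0.83 ± 0.26, Tacc3 at 0.77 ± 0.33, Birc5 at 0.63 ± 0.24, Mki67 at 0.39 and Top2a at -0.15. Over all cells the S over G2 and M log2 ratio was -1.16 and -1.10 in control and -0.99 and -0.90 in NP137, without overlap. The difference in this ratio was 0.18 (exact permutation p = 0.333).

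The order of the libraries was the same at both ends in every class for Pcna and Ung. Pcna was highest in control 2 and lowest in NP137 2 in all 8 classes, with 24.2 and 56.3 CPM in control and 36.0 and 17.7 in NP137 in YFP-positive cells. Ung was highest in NP137 1 and lowest in control 2 in all 8 classes. The fold of Tyms was above 0 in all 8 classes, from 0.20 in neutrophil-like to 1.49 in YFP-positive cells, and passed in none of them by edgeR. How many of all genes keep such an order or sign over the classes was not counted. These patterns are thus not read as particular to cell cycle genes.

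The NP137 difference in YFP-positive cells was set against that of fibroblast-like and of macrophage or monocyte-like cells in an interaction test. No gene of the 51 passed in either, and at an unadjusted p of 0.05 there were 3 lower for fibroblast-like cells (8.22% of all genes) and 1 higher for macrophage or monocyte-like cells (5.29% of all genes), shares of the 51 below those of all genes. By adjusted edgeR p, 0.319% of all genes were higher and 1.41% lower for fibroblast-like cells, and 0% for macrophage or monocyte-like cells. Relative to fibroblast-like cells all 30 G2 and M genes were below 0, with a median of -1.13, and 10 of 21 S genes above 0, with a median of -0.27, beside 49.8% of all genes above 0. Prc1 was at -2.16 ± 0.51 (edgeR adjusted p = 0.0814), Anln at -2.38 ± 0.77 (0.238), Cenpf at -1.81 ± 0.62 (0.246), Mcm6 at -0.94, Uhrf1 at -0.75 and Ung at 0.90. Mki67 was at -1.10 ± 1.11 and Top2a at -1.20. DESeq2 called 2 as lower, Anln and Prc1 (4.02% of all genes). Without control 1, 26 genes passed, all lower (5.07% of all genes), and without NP137 1, 10, also all lower (6.9%). In the first of these fits control 2, with 60 fibroblast-like cells, was the single control library, in the second NP137 2 the single treated one, and each was assumed to vary like the other libraries. Relative to macrophage or monocyte-like cells 15 of 51 were above 0 (48.9% of all genes), with Ung at 1.20 ± 0.44 and, below 0, Nusap1 at -1.39, Prc1 at -1.20 and Cenpf at -1.13.

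None of the other listed genes of the cycle passed between NP137 and control in any class by edgeR. In YFP-positive cells their median log2 fold change was 0.41 over 14 cyclins and cyclin-dependent kinases, -0.03 over 12 kinase inhibitors and p53 targets, 0.06 over 21 E2F, Rb and DREAM factors, 0.37 over 18 licensing and checkpoint genes and 0.07 over 81 other mitotic genes, beside -0.03 over all genes. Over the 32 class by library sums, the genes outside the set whose log2 CPM went most closely with its summed level were Knl1 (Pearson r = 0.938), Ccna2 (0.936), Knstrn (0.932), Kif20b (0.932) and Ndc80 (0.928), among 8722 genes of at least 10 CPM on average. The points share libraries and class sizes, and the values are a description.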

How the data were processed

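Single-cell RNA of dissected tumours was counted as UMIs per gene and barcode. Per the file headers, 10x software 3.0.2 wrote the deposited count matrices. The submitters' processing notes name mm10 and Seurat 3.1.5. The aligner is not given in the sources used here. Of the genotype, 1 allele is not reported here. A cell needed 200 genes or more and a mitochondrial share below 20%, and Scrublet scores removed 0.8% of cells per 1000 barcodes as doublets. Those removed cycled at 16.8% and 27.7% in control and 17.1% and 17.9% in NP137. Clustering used scanpy 1.11.5 (2000 variable genes, 30 components, 15 neighbours, Leiden resolution 1, 33 clusters), with 197 cell cycle genes left out. UMIs were summed per class and library, where every library held 50 cells of the class or more, and tested with edgeR 4.0.16 (quasi-likelihood, TMM, filterByExpr), with DESeq2 1.42.0 as an alternative. Shares were tested by exact permutation over 4 libraries. Fold changes are on the TMM scale and CPM on plain library totals. The members and lists were chosen with earlier results of these data known. The genes named are Mki67, Top2a and, per comparison, up to 10 that pass by smallest p, or else the 3 S and 3 G2 and M members of smallest p; other genes are named for the spread they show and were chosen after their values were seen. The labels do not say whether a replicate number marks a shared animal or day. The matrices numbered 1 share a date in their names and those numbered 2 do not.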

Additional observations from a re-analysis of the deposited data

Results flagged for a closer look

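B-like and dendritic-like cells entered no comparison, because at least 1 library held fewer than 50 of them. In NP137 2, B-like cells cycled at 42.03% (332 of 790 cells, exact binomial 95% interval 38.6 to 45.6), above the 3.38 to 6.11 of neutrophil-like cells of that library, while the other libraries held at most 2 such cells each. Among them the cluster led by Igkc and Jchain cycled at 45.4% and the cluster led by Cd79a and Ms4a1 at 33.5%. The 51 genes summed to 4501 CPM in B-like cells of NP137 2, with Mki67 at 412 CPM and Top2a at 241 CPM. Dendritic-like cells of NP137 2 cycled at 14.92% (11.1 to 19.5), also above that background. Among them the cluster led by Tbc1d4 and Ccr7 cycled at 17.2% and the cluster led by Siglech and Klk1 at 5.26% (3 of 57 cells, 1.10 to 14.6), the latter within the neutrophil-like range. Dendritic-like cells of the other libraries cycled at 13.3% of 128 and 6.67% of 45 cells in control and at 17.7% of 203 cells in NP137 1. None of these differences was tested.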

How the results depend on the processing

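Of the values recomputed under other settings, 344 kept their direction and their side of the threshold, 37 moved and 25 reversed. Between NP137 and control, where none of the 51 genes passed by edgeR, some settings gave calls. The counts in this section stand without the share of all genes and show only how the calls move with the setting. Without a filter on low counts 4 passed in YFP-positive (Mcm7, Rrm2, Tyms and Ung), 16 in fibroblast-like, 7 in T or NK-like and 1 in macrophage or monocyte-like cells (Pclaf), DESeq2 called 7 in YFP-positive cells, and leaving out each library gave 0 to 1 in fibroblast-like (Pclaf without control 1) and 0 to 29 in T or NK-like cells. With the replicate block 0 passed in all 9 fits, with 2 pairs and correlations of -0.24 to 0.25. For shares and ratios the block could not change a sign, because the mean difference within 2 balanced pairs equals the difference of the group means. The correlation was 0.18 to 0.25 in keratinocyte-like, fibroblast-like, macrophage or monocyte-like and neutrophil-like cells, and a shared date stands in the file names of the first pair alone, so the numbers were not read as pairing the samples. Crossed pairing, chosen after seeing the data, also gave 0 over all cells. Against other classes, leaving out each library gave 1 to 17 genes for endothelial-like, 5 to 22 for fibroblast-like, 6 to 18 for keratinocyte-like, 11 to 27 for macrophage or monocyte-like, 0 to 7 for pericyte-like and 1 to 22 for T or NK-like cells, and DESeq2 called 38 for fibroblast-like and 8 for T or NK-like cells. The interaction with fibroblast-like cells gave 2 by DESeq2, 3 without the filter (Anln, Cenpf and Prc1) and 0 to 26 on leaving out libraries. The difference in cycling share was reversed without thinning over all cells (-7.13 points), in fibroblast-like (-2.35), pericyte-like (-3.56) and macrophage or monocyte-like cells (-2.81). At 1000 UMIs it was -1.04 over all cells, -1.13 in YFP-positive and 1.19 in endothelial-like cells, and with 3 members per cycling cell 3.92 in endothelial-like cells. In YFP-positive cells it was -0.10 under the stricter cell filter and -1.09 with doublets kept, and in neutrophil-like cells 2.48 with doublets kept. Leaving out each library gave -5.03 to 5.28 in YFP-positive, -0.637 to 10.97 in pericyte-like and -3.40 to 1.28 in neutrophil-like cells. The log2 S over G2 and M difference of keratinocyte-like cells was -0.59 with doublets kept and -0.35 with cell cycle genes clustered, and leaving out each library gave -0.32 to 0.45 there, -1.78 to 0.23 in pericyte-like, -0.67 to 0.37 in endothelial-like, -0.085 to 0.18 in neutrophil-like and -0.60 to 0.17 in T or NK-like cells. The epithelial minus mesenchymal share was 11.7 points in control 1 (5.72 at 1000 UMIs, 19.9 without thinning, 19.04 with 3 members) and 16.5 in NP137 1 (34.8 without thinning, 31.7 with 2 G2 and M UMIs, 33.2 with 3 members). The cause of these changes was not tested. Depth limits T or NK-like and neutrophil-like cells most, since most of their NP137 1 cells held under 2000 UMIs.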
